A study of Saccharomyces cerevisiae with 10 samples.

Results

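The genes described here are the 50 budding yeast genes without a standard symbol whose ratio to a reference was lowest late after a shift to lower osmolarity, relative to before it. Symbols were taken from the RefSeq gene table of assembly R64. Of 5822 genes on the arrays, 4895 had a symbol there, and YDL038C was left out of the remainder since today's annotation joins it with PRM7. That left 926 unnamed genes, of which 841 had all 6 values that the choice needed. The members were chosen by measured values: with the median of every array set to 0, the mean of 30 and 60 min minus 0 min was taken in each strain, and the 50 genes with the lowest average of both strains were kept. This quantity is called the late change below. It chose the members, so it is given as a description and was not tested.

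The series followed *Saccharomyces cerevisiae* with 2-colour arrays, each hybridised with total RNA of 1 sample and a second channel labelled as reference, whose origin the labels do not give. There were 10 arrays, 1 for each strain and time: the wild type at 0, 7, 16, 30 and 60 min, and a strain labelled as deleted for PPT1, the gene of a protein phosphatase that acts on Hsp90, at 0, 7, 15, 30 and 60 min. The labels name hypo-osmotic shock for both strains, give no strain background, medium or size of the shift, and do not say if 1 culture was sampled repeatedly. No unshifted culture is analysed here, so the shift and elapsed time cannot be told apart.

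When the medium around a yeast cell becomes more dilute, water enters, the cell wall is stretched, the cell wall integrity pathway is activated, and glycerol that had been stored against high osmolarity is let out. Genes switched on by high osmolarity or general stress are known to be turned down again in such conditions. A systematic name such as YOR338W gives the chromosome (O), its right or left arm (R or L), a number counted outwards from the centromere, and the coding strand (W or C). Many open reading frames in the first yeast annotation carry such a name only. Some of them are listed in RefSeq without a symbol, and others are no longer listed, often because they overlap a known gene.

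The arrays held between 5440 and 5807 values each, and their number limits the precision of every value. Values are centred log2 ratios, likely of sample over reference, though the log base and the direction of the ratio are not stated. If the ratio ran the other way, every higher and lower below would turn and the members would be the unnamed genes most raised late, and with another log base the folds would differ. PPT1 itself was no lower where the label says ppt1: the fitted difference was 0.19 ± 0.13 (SE, 5 matched pairs, limma adjusted p = 0.417), so the label is carried below as the submitters gave it. No label says that the arrays stand for separate cultures. The p-values therefore refer to array-to-array spread alone, part or all of which can be technical.

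Of the 50 members, 35 stood in the R64 table without a symbol and 15 were not in it. These were 8.52% of the 411 listed and 3.49% of the 430 unlisted candidates. The late change ranged from -2.63 to -0.63 with a median of -0.91, against a median of -0.04 over all 841 candidates and -0.01 over the 4518 genes with a symbol. In 17 members it amounted to a ratio at least 2-fold lower, if the values are log2 of sample over reference. All 50 were lower late in each strain taken alone, from -2.69 to -0.27 in the wild type and from -2.58 to -0.16 on the arrays labelled ppt1. Before the shift 44 members stood above the array median in both strains and 2 stood below it in both. Members lay on 14 chromosomes, with 6 each on VII, XIII, XIV and XV, and 29 had the strand letter W and 21 the letter C.

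**Figure D1:**
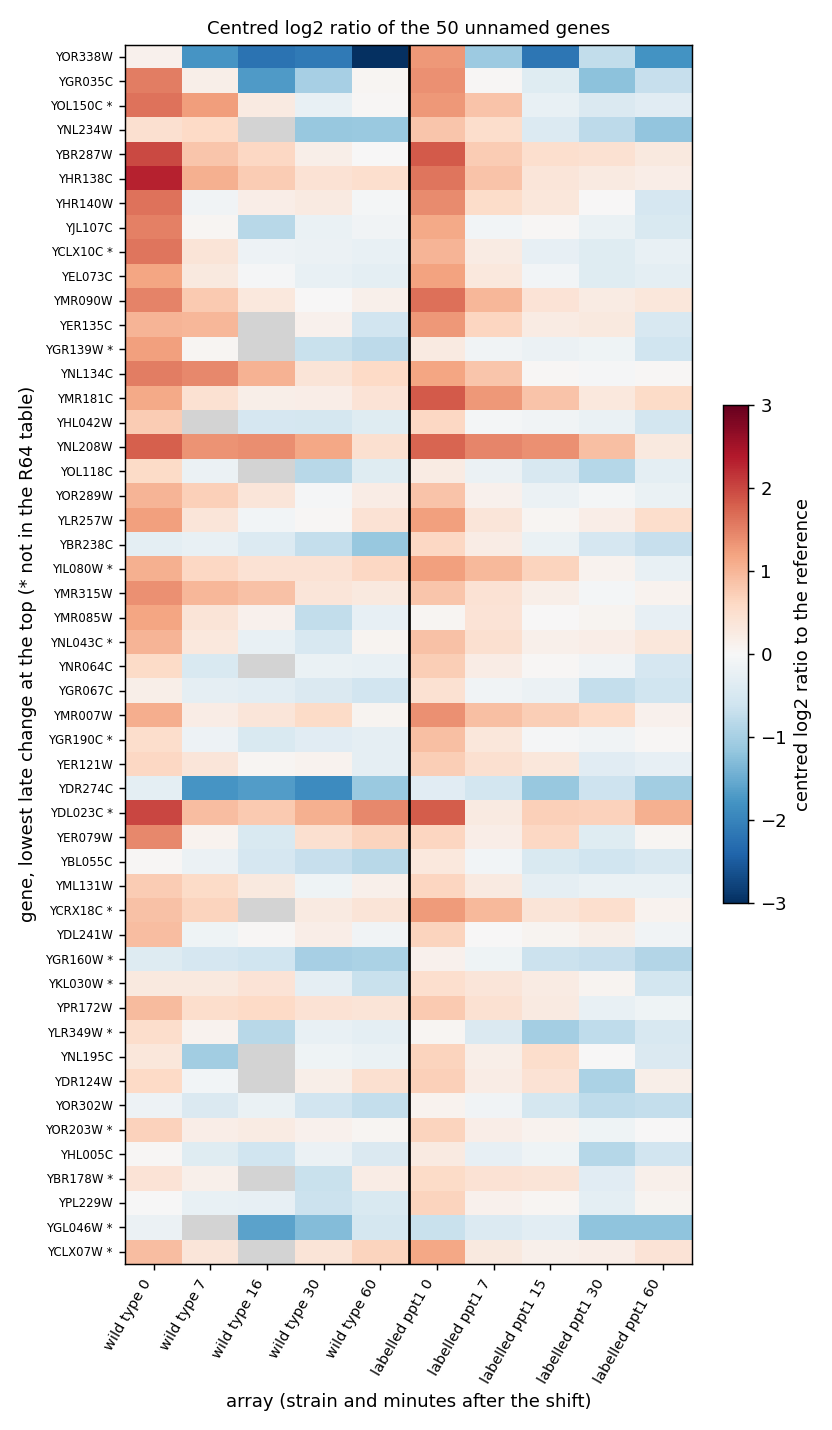
Heat map of the centred log2 ratio of the 50 genes (rows, lowest late change at the top) on the 10 arrays (columns: strain and minutes after the shift). Red is above and blue below the array median, grey is no value, and an asterisk marks the 15 genes that the R64 table does not list. Both 0 min columns are the reddest in most rows, and YDL023C and YNL208W are among the rows above 0 on every array.

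The limit between members and other genes fell on a tie. YGL046W (late change -0.64) and YCLX07W (-0.63) were just inside, and YLR311C (-0.63) and YLR232W (-0.62) just outside. YCLX07W and YLR311C had the same late change, and the first was kept because it comes first in the deposited table.

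The lowest member was YOR338W, a gene of unknown function with a duplicate copy in FUN19. In the wild type its centred log2 ratio was 0.14, -1.77, -2.21, -2.12 and -2.99 at 0, 7, 16, 30 and 60 min. On the arrays labelled ppt1 it was 1.31, -1.09, -2.17, -0.75 and -1.79 at 0, 7, 15, 30 and 60 min. In each strain the 0 min array stood above all 4 later ones, and the late change averaged -2.63, a ratio 6.2-fold lower. YGR035C, whose duplicate copy is CIS1, came next with -2.16. Its wild type values were 1.52, 0.17, -1.69, -0.99 and 0.05 at 0, 7, 16, 30 and 60 min. Those labelled ppt1 were 1.37, 0.04, -0.35, -1.24 and -0.69 at 0, 7, 15, 30 and 60 min. The wild type of YGR035C was back near 0 at 60 min, while at that time the array labelled ppt1 stayed below 0.

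YNL234W codes for a haem protein related to globins. Its wild type ratio was 0.49, 0.59, -1.13 and -1.11 at 0, 7, 30 and 60 min, with no value at 16 min. Labelled ppt1, it was 0.83, 0.52, -0.41, -0.79 and -1.18 at 0, 7, 15, 30 and 60 min. In both strains YNL234W stood well above the array median at 7 min and below it from 30 min on, and 5.98% of its late change was present at 7 min.

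YBR287W, a membrane protein resembling plant auxin carriers, had a different course. It measured 1.98, 0.84, 0.62, 0.18 and 0.02 at 0, 7, 16, 30 and 60 min in the wild type. The values labelled ppt1 were 1.84, 0.77, 0.50, 0.47 and 0.29 at 0, 7, 15, 30 and 60 min. All 8 arrays after the shift lay between 0 and 0.9 and both earlier ones above 1.8, with 66% of the late change of -1.67 present at 7 min. YHR138C, which resembles the proteinase B inhibitor Pbi2, was the highest member before the shift in the wild type. Its wild type values ran 2.30, 1.08, 0.76, 0.44 and 0.52 at 0, 7, 16, 30 and 60 min. Its values labelled ppt1 ran 1.61, 0.85, 0.36, 0.26 and 0.21 at 0, 7, 15, 30 and 60 min. Levels were lower on each later array than at 0 min, in both strains, and the late change was -1.60.

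YHR140W, coding for a putative membrane protein, was at 1.62, -0.12, 0.19, 0.26 and -0.06 at 0, 7, 16, 30 and 60 min in the wild type. With the label ppt1 it was at 1.42, 0.54, 0.35, 0.01 and -0.51 at 0, 7, 15, 30 and 60 min. By 7 min it already showed 82% of its late change of -1.60.

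YCLX10C, which the R64 table does not list, and YEL073C had nearly the same course. In time order YCLX10C went through 1.61, 0.39, -0.14, -0.17 and -0.22 in the wild type and 1.02, 0.25, -0.25, -0.37 and -0.23 in the series labelled ppt1. YEL073C went through 1.18, 0.29, -0.04, -0.21 and -0.29 in the wild type and 1.20, 0.30, -0.08, -0.37 and -0.28 in the other series. All 4 of their 0 min values were above 1, and all values from 15-16 min on were below 0. Their late changes were -1.56 and -1.48. YLR257W began as high, at 1.24, 0.36, -0.08, 0.03 and 0.44 in the wild type and 1.24, 0.35, 0.05, 0.21 and 0.52 labelled ppt1. Its lowest array was that of 15-16 min in both strains, and at 60 min it stood higher again, with a late change of -0.94.

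YNL208W and YER135C were lowest at 60 min in both strains. The wild type values of YNL208W were 1.80, 1.35, 1.40, 1.15 and 0.49, and those labelled ppt1 1.74, 1.47, 1.38, 0.91 and 0.29. It stood above 0.9 up to 30 min in both strains and at 0.49 and 0.29 at 60 min. The wild type values of YER135C were 1.03, 0.99, 0.12 and -0.57 at 0, 7, 30 and 60 min, and its values labelled ppt1 were 1.31, 0.65, 0.24, 0.30 and -0.49. YER135C was below 0 on the 60 min arrays alone, and its late change was -1.33 against -1.06 for YNL208W.

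YOR289W stood at 1.02, 0.72, 0.36, -0.03 and 0.23 in the wild type and at 0.86, 0.13, -0.17, -0.05 and -0.20 labelled ppt1. The array labelled ppt1 was the lower one at 0, 7, 15-16, 30 and 60 min, with a late change of -0.95, and the strain difference of -0.35 ± 0.10 did not pass (limma adjusted p = 0.0788). YOL118C measured 0.58, -0.18, -0.83 and -0.35 at 0, 7, 30 and 60 min in the wild type, against 0.24, -0.17, -0.48, -0.84 and -0.30 labelled ppt1. It was lowest at 30 min in both strains, with a late change of -0.99. YHL042W measured 0.76, -0.50, -0.52 and -0.36 at 0, 16, 30 and 60 min in the wild type, with no value at 7 min, and 0.61, -0.06, -0.10, -0.19 and -0.55 labelled ppt1. All its values after the shift were below 0 and both before it above 0.6, a late change of -1.09. YHL042W belongs to a family of similar subtelomeric genes (DUP380), so its signal and that of its relatives may not be separate.

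Several members resemble enzymes. YMR090W, YNL134C, YMR315W and YML131W look like NAD(P)-dependent reductases or dehydrogenases, and YNL134C and YMR315W have been shown to act as oxidoreductases. YMR090W had wild type values of 1.49, 0.79, 0.31, 0.02 and 0.14 at 0, 7, 16, 30 and 60 min. Its values on the arrays labelled ppt1 were 1.66, 1.004, 0.40, 0.24 and 0.35 at 0, 7, 15, 30 and 60 min. The strains followed each other closely, with the array labelled ppt1 the higher one at each time. In the wild type, YNL134C stood at 1.53, 1.45, 1.05, 0.39 and 0.59 at 0, 7, 16, 30 and 60 min. Its ratios labelled ppt1 were 1.19, 0.83, 0.04, -0.03 and 0.03 at 0, 7, 15, 30 and 60 min. YNL134C stood nearly as high at 7 min as at 0 min in the wild type, and it was lower on the array labelled ppt1 at each time. The wild type levels of YMR315W were 1.37, 1.01, 0.88, 0.36 and 0.30 at 0, 7, 16, 30 and 60 min. Those on the arrays labelled ppt1 were 0.82, 0.44, 0.18, -0.05 and 0.10 at 0, 7, 15, 30 and 60 min, again lower at each time. YML131W had 0.76, 0.57, 0.29, -0.14 and 0.15 in the wild type and 0.65, 0.28, -0.28, -0.20 and -0.20 labelled ppt1, a late change of -0.80, and its array labelled ppt1 was the lower one at each time too.

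Among the other enzyme-like members, the late change was -0.91 for YNR064C, an epoxide hydrolase, -0.83 for YBL055C, which resembles TatD nucleases, and -0.75 for YPR172W, which resembles pyridoxamine phosphate oxidases. YMR085W is part of a broken duplicate of GFA1, the first enzyme of chitin precursor synthesis, and its signal may include that of GFA1. It read 1.19, 0.39, 0.13, -0.75 and -0.24 at 0, 7, 16, 30 and 60 min in the wild type. Labelled ppt1, YMR085W read 0.07, 0.42, 0.01, 0.07 and -0.25 at 0, 7, 15, 30 and 60 min. The late change was -1.68 in the wild type against -0.16 labelled ppt1, and the 0 min arrays of the strains differed most. 

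YBR238C, a mitochondrial protein and duplicate of RMD9, started from different levels in the strains. It was at -0.29, -0.23, -0.41, -0.70 and -1.13 in the wild type and at 0.63, 0.23, -0.20, -0.51 and -0.70 labelled ppt1. In the wild type it was below the array median throughout, and in both strains the 60 min array was the lowest. YGR067C, a zinc finger protein resembling Adr1, was at 0.18, -0.27, -0.32, -0.44 and -0.57 in the wild type and at 0.47, -0.11, -0.18, -0.72 and -0.60 labelled ppt1, above 0 on the 0 min arrays alone. YDR274C was below 0 already at 0 min, with -0.29, -1.76, -1.67, -1.89 and -1.11 in the wild type and -0.34, -0.56, -1.14, -0.63 and -1.05 labelled ppt1. It and YGL046W were the 2 members below the array median before the shift in both strains. YGL046W gave -0.17, -1.60, -1.30 and -0.52 at 0, 16, 30 and 60 min in the wild type, against -0.68, -0.40, -0.32, -1.22 and -1.20 labelled ppt1. Labelled ppt1, it stood higher at 7 and 15 min than at 0 min, and lower at 30 and 60 min. Its values before and after the shift also overlap between the strains.

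Further members were YIL080W (late change -0.93), YMR007W (-0.88), YER121W (-0.87), YER079W (-0.84), YCRX18C (-0.77), YDL241W (-0.75), YNL195C (-0.69), YDR124W (-0.68), YHL005C (-0.66) and YBR178W (-0.66). The R64 table does not list YIL080W, YCRX18C and YBR178W. YER079W differed between the strains in shape: the wild type had 1.45, 0.09, -0.45, 0.48 and 0.66 and the series labelled ppt1 0.65, 0.21, 0.62, -0.37 and 0.07. Its lowest array was that of 16 min in the wild type and that of 30 min otherwise. YDR124W had 0.59, -0.08, 0.17 and 0.48 at 0, 7, 30 and 60 min in the wild type, against 0.70, 0.22, 0.42, -0.94 and 0.17 labelled ppt1. The 30 min array labelled ppt1 stood apart for YDR124W, since the other 3 late values were above 0.

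YMR181C and YPL229W are duplicate copies of each other, and both were members. YMR181C stood at 1.13, 0.46, 0.18, 0.21 and 0.41 at 0, 7, 16, 30 and 60 min in the wild type. YMR181C labelled ppt1 stood at 1.84, 1.31, 0.87, 0.31 and 0.58 at 0, 7, 15, 30 and 60 min. YPL229W was at -0.02, -0.23, -0.25, -0.65 and -0.46 at 0, 7, 16, 30 and 60 min in the wild type. Labelled ppt1, YPL229W was at 0.67, 0.13, 0.07, -0.29 and 0.07 at 0, 7, 15, 30 and 60 min. Both copies were higher on the array labelled ppt1 at each of the 5 times, and their late changes were -1.11 and -0.66. The sources used here do not give the bases on each spot, so the 2 copies may share signal.

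The members differed in how soon they were lower. The share of the late change present at 7 min had a median of 59.1% over the 48 members with both 7 min values and ranged from 5.98% to 154%. It was 50% or more in 30 members, between 20% and 50% in 14 and below 20% in 4. These 4 were YNL234W, YKL030W (8.84%), YBR238C (18.5%) and YNL134C (19.7%). YDL023C (154%), YNL195C (136%), YCLX07W (113%), YDL241W (112%) and YER079W (107%) were lower at 7 min than late. At 7 min 44 of the 48 stood below 0 min in both strains, and 45 of the 50 were below their own 0 min array on every later array with a value. The 7 min shares use the same 0 min arrays as the choice of members and are a description.

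For 47 members the systematic name gives a place in the order of its chromosome arm. The other 3, YCLX10C, YCRX18C and YCLX07W, have early names of chromosome III without such a number. The nearest measured genes with a symbol below and above each number were taken as neighbours, and likeness was Pearson's r of the centred ratios over the arrays, which all carry the same reference label. Of the 35 listed members 1 had r above 0.9 with a neighbour, and of the 12 unlisted members with a place 6 did. Over all candidates with a place, listed or not, these counts were 6 of 411 and 24 of 399, members included. Members were chosen for a large change on these arrays, which favours a high r with a like neighbour, so the counts are a description. All 6 unlisted members with r above 0.9 carry the opposite strand letter to the like neighbour, which bears the adjoining number. Opposite letters were common anyway, in 16 of the 24 neighbour pairs of unlisted members and 485 of the 783 pairs of all unlisted candidates. Outside the members, 18 unlisted candidates had r above 0.9, of which 11 had the opposite letter and 16 the adjoining number. The sources used here do not say which strand a spot reads or whether spots overlap, so an unlisted member and its neighbour may be 1 signal.

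YOL150C, the lowest unlisted member, adjoins GRE2, a methylglyoxal reductase gene induced by high osmolarity. In the wild type, YOL150C was at 1.64, 1.26, 0.26, -0.21 and 0.04 and GRE2 at 1.94, 1.38, 0.25, 0.03 and 0.34 at 0, 7, 16, 30 and 60 min. Labelled ppt1, YOL150C was at 1.31, 0.86, -0.21, -0.44 and -0.35 and GRE2 at 1.73, 0.95, -0.11, -0.18 and -0.20 at 0, 7, 15, 30 and 60 min. Both were high before the shift and at 7 min and low from 15-16 min on (r = 0.99, 10 arrays), with late changes of -1.71 and -1.84.

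YDL023C adjoins GPD1, which codes for a glycerol-3-phosphate dehydrogenase and serves to make glycerol. The wild type values in time order were 2.01, 0.93, 0.79, 1.05 and 1.44 for YDL023C and 2.16, 1.09, 0.96, 0.91 and 1.60 for GPD1. Labelled ppt1, they were 1.83, 0.27, 0.71, 0.70 and 1.06 and 1.81, 0.18, 0.71, 0.71 and 1.03. Both were lowest on the 7 min array labelled ppt1, stood higher again at 60 min, and differed by 0.09 on average per array (r = 0.98).

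YGR190C adjoins HIP1, the histidine permease gene. In the wild type YGR190C was at 0.52, -0.15, -0.45, -0.35 and -0.28 and HIP1 at 0.37, -0.25, -0.35, -0.46 and -0.38. With the label ppt1, YGR190C was at 0.90, 0.34, -0.04, -0.10 and 0.04 and HIP1 at 0.63, 0.23, 0.12, -0.21 and -0.18. Both were higher on the arrays labelled ppt1 at each time (r = 0.96). YLR349W adjoins DIC1, the mitochondrial dicarboxylate carrier gene. Its wild type values were 0.52, 0.10, -0.84, -0.23 and -0.30, with 0.36, 0.07, -0.74, -0.50 and -0.11 for DIC1. Labelled ppt1, YLR349W measured 0.05, -0.43, -1.03, -0.77 and -0.48 and DIC1 -0.10, -0.78, -1.32, -0.96 and -0.59. Each of the pair was lowest at 15-16 min in both strains (r = 0.95).

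**Figure D2:**
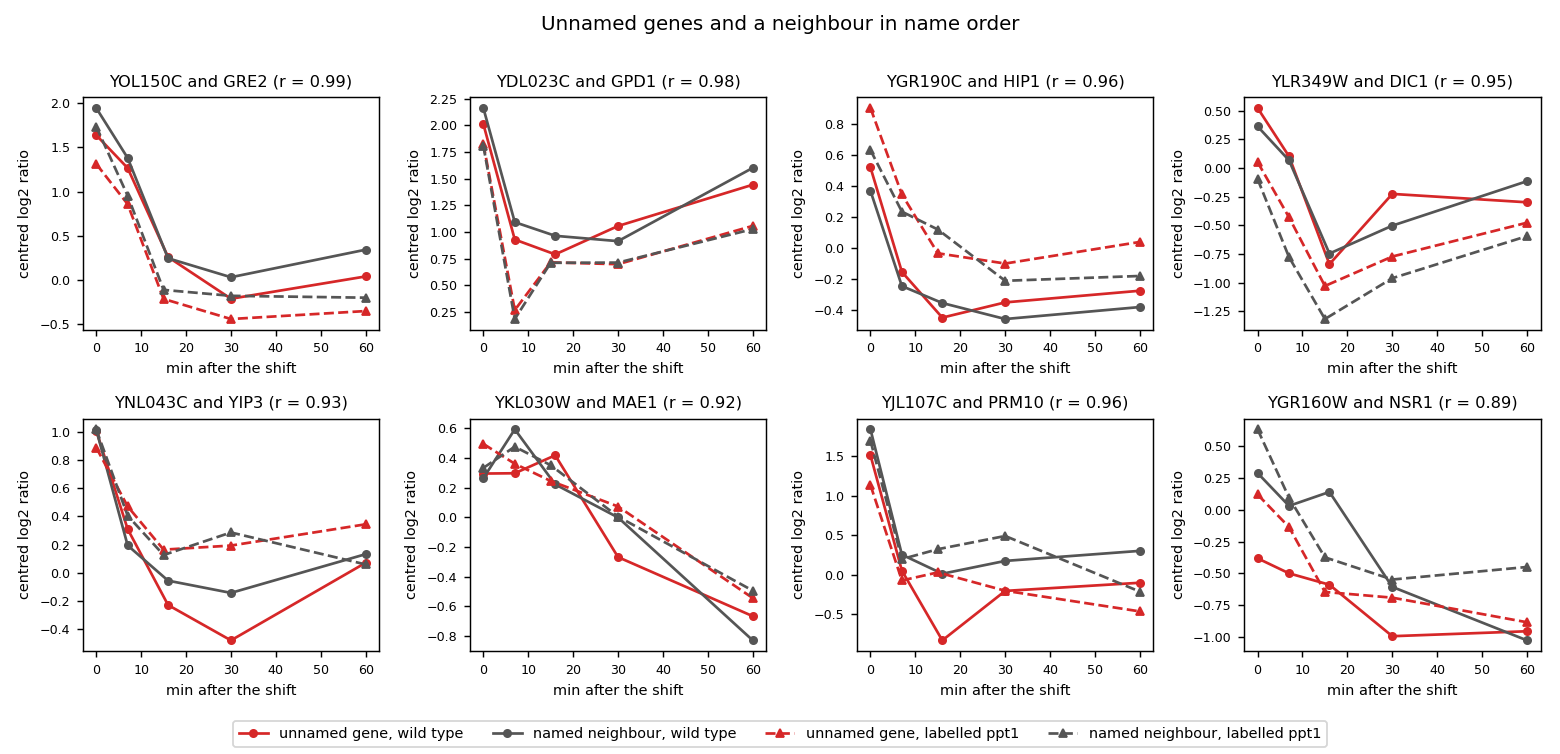
Centred log2 ratio (vertical axes, scales differ) against minutes after the shift for 8 members (red) and 1 neighbour each (grey), wild type as circles with solid lines and labelled ppt1 as triangles with dashed lines, 1 array a point. The red and grey lines run close together in YOL150C with GRE2 and YDL023C with GPD1, and lie apart in YGR160W with NSR1 in the wild type.

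The other unlisted members above 0.9 were YNL043C with YIP3 (r = 0.93), a gene of vesicle traffic, and YKL030W with MAE1 (r = 0.92), the mitochondrial malic enzyme gene. The late changes were -0.92 and -0.93 in the first pair and -0.75 and -0.63 in the second. YKL030W was at 0.29, 0.30, 0.42, -0.27 and -0.67 in the wild type and at 0.49, 0.36, 0.24, 0.07 and -0.55 labelled ppt1, lowest at 60 min in both strains. YNL043C was at 1.01, 0.31, -0.23, -0.48 and 0.07 in the wild type and at 0.89, 0.47, 0.16, 0.19 and 0.34 labelled ppt1, highest before the shift in both. Below 0.9 came, among the unlisted members, YGR139W with TPO2, a polyamine exporter gene (r = 0.89), and YGR160W with NSR1, a nucleolar protein gene (r = 0.89). Then came YOR203W with HIS3 of histidine synthesis (r = 0.87) and YGL046W with ALG13 (r = 0.86) and RIM8 (r = 0.85). YGL046W and both its neighbours carry the same strand letter. The listed member above 0.9 was YJL107C with PRM10 (r = 0.96), on the same strand by their letters, with late changes of -1.56 and -1.58. Its wild type values were 1.51, 0.05, -0.83, -0.20 and -0.10, and those labelled ppt1 were 1.14, -0.07, 0.03, -0.20 and -0.46. Next among the listed members was YDR124W with INO2 (r = 0.89, 9 arrays), of opposite strand letter, with late changes of -0.68 and -1.26. On the 30 min array labelled ppt1, YDR124W stood at -0.94 and INO2 at -1.53. YOR302W is the short upstream frame in the leader of the CPA1 transcript, whose peptide lowers CPA1 translation when arginine is plentiful. YOR302W stood at -0.15, -0.42, -0.19, -0.57 and -0.73 in the wild type and at 0.10, -0.11, -0.53, -0.77 and -0.71 labelled ppt1. Its late change was -0.67 and that of CPA1 -0.90 (r = 0.87).

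The late change chose the members, so a neighbour that shares a member's signal is low through the same choice. The counts of low neighbours are therefore a description and were not tested. A neighbour with a late change as low as the limit for members was present beside 10 of the 12 unlisted members with a place and beside 8 of the 35 listed ones. Outside the members it was present beside 39 of 387 unlisted candidates (10.1%) and 57 of 376 listed ones (15.2%). Counted singly, 6.46% of all genes with a symbol were as low. That share is not a like measure, because the shares beside candidates count a low value in either neighbour. Members such as YOR338W, YBR287W, YNL234W and YMR090W had no such neighbour: the late changes beside YOR338W were -0.35 for TEA1 and -0.26 for UBC11, those beside YBR287W -0.04 for APE3 and 0.23 for APM3.

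The step from 7 to 15-16 min does not enter the choice of members, and it was tested with limma over all genes, with 1 array of each strain at a time. YOL150C fell by 1.04 ± 0.12 on the log2 scale (adjusted p = 0.0084), lower in both strains. It was the only one of the 50 members to pass, and 0 rose. Of all 5817 genes tested, 0.447% were called lower and 0.0172% higher, so the members' count rests on a single gene. Without 1 of the wild type 7 or 16 min arrays, or the 15 min array labelled ppt1, YOL150C did not pass (adjusted p = 0.109, 0.0631 and 0.0533), and without that last array YGR035C passed instead. At an unadjusted p under 0.05, 16 members were lower and 0 higher, against 3.92% and 3.04% of all genes.

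The fitted step was below 0 in 43 of the 50 members, with a median of -0.26, against 52.3% and a median of -0.01 over all genes. Part of this lean follows from the choice of members. YGR035C (-1.13 ± 0.37, adjusted p = 0.493), YNL234W (-1.03 ± 0.21, adjusted p = 0.113) and YLR349W (-0.77 ± 0.14, adjusted p = 0.0609) had the lowest estimates among members that did not pass, followed by YOR338W (-0.76 ± 0.27). For 10 members, YNL234W among them, the wild type 16 min value was missing and the fit rested on the other arrays.

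Between 30 and 60 min 0 members passed in either direction in limma's fit, where 0% of all genes were called higher and 0.0516% lower. At an unadjusted p under 0.05, 5 members were higher and 5 lower, that is 10% each, against 4.42% and 5.47% of all genes. The median difference was 0.02 over the members and 0.01 over all genes. The lowest adjusted p belonged to YNL208W, which was lower at 60 min by 0.64 ± 0.13 (adjusted p = 0.189). YOR338W was at -0.96 ± 0.27 and YER135C at -0.74 ± 0.17, while YGR035C was at 0.80 ± 0.37 and YDR124W at 0.71 ± 0.29.

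The strain difference, averaged over the 5 matched times, does not enter the choice either, because the rule averages the strains. In limma's fit 3 members were higher on the arrays labelled ppt1 and 4 lower. That is 6% and 8% of the members against 1.73% and 2.06% of all 5822 genes. Of the 841 candidates, members included, 21 were called higher and 23 lower. At an unadjusted p under 0.05, 10 of the 50 members were higher and 9 lower, against 11.9% and 11.3% of all genes. YOR338W was higher by 0.89 ± 0.17 (adjusted p = 0.027), YPL229W by 0.45 ± 0.09 (adjusted p = 0.027) and YGR190C by 0.37 ± 0.08 (adjusted p = 0.0371), each in 5 of 5 matched pairs. YNL134C was lower, at -0.59 ± 0.10 (adjusted p = 0.0196), as were YMR315W at -0.48 ± 0.09 (adjusted p = 0.0269), YLR349W at -0.38 ± 0.09 (adjusted p = 0.0486) and YOL150C at -0.37 ± 0.08 (adjusted p = 0.0391), each in 5 of 5 pairs. If all times of a strain share a culture, these 5 pairs are not independent.

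These strain calls depended on single arrays and on scaling. Leaving out an array takes its matched pair out of the strain difference. With either 7 min array left out 0 of the 50 members passed. With an array of 0 or 30 min left out YNL134C alone passed, with one of 60 min YMR315W alone, and with one of 15-16 min YOR338W, YNL134C and YPL229W. With quantile normalization the difference of YOR338W was 0.29 (adjusted p = 0.377), and with median and MAD scaling it was 0.66 (adjusted p = 0.134).

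Of the members beside a like neighbour, YLR349W was lower together with DIC1 (-0.56, adjusted p = 0.0124). GRE2 beside YOL150C was at -0.35 (adjusted p = 0.0506) and HIP1 beside YGR190C at 0.33 (adjusted p = 0.0544), with the same sign as the member and just short of the threshold. YMR181C, the duplicate of YPL229W, was at 0.51 ± 0.12 and did not pass (adjusted p = 0.0506). The other reductase-like genes were at -0.28 ± 0.09 for YML131W and 0.18 ± 0.08 for YMR090W (adjusted p = 0.115 and 0.18), so the 4 reductase-like members did not all lean one way.

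**Figure D3:**
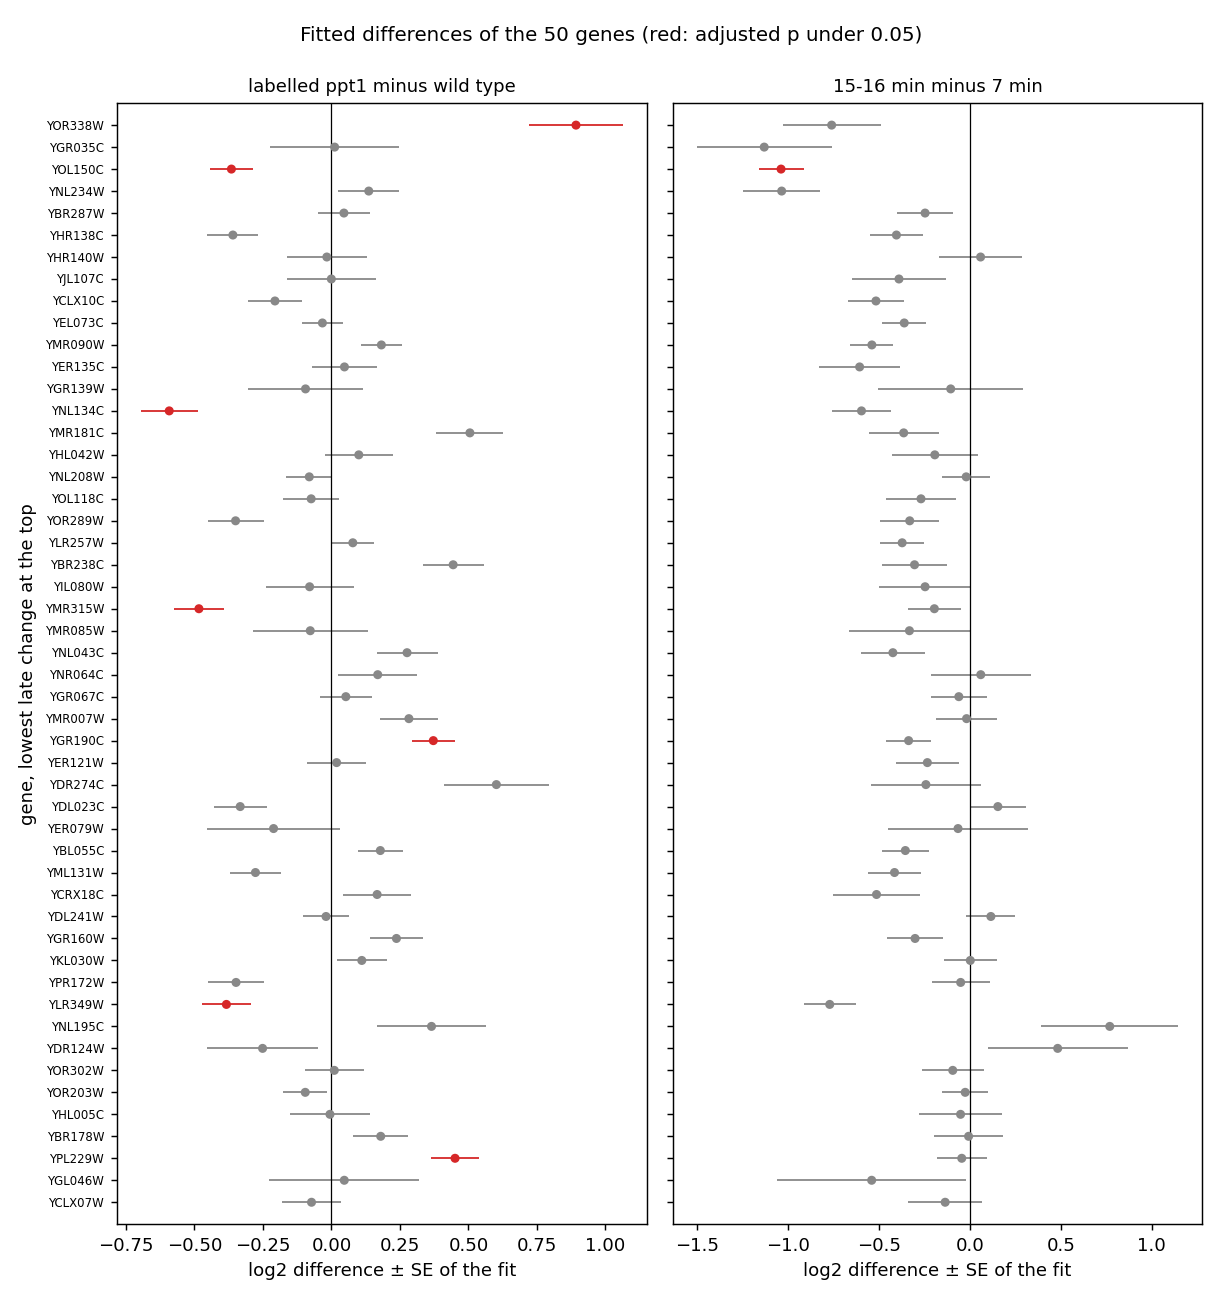
Fitted log2 differences (points) with their standard errors (bars) for the 50 genes, lowest late change at the top: labelled ppt1 minus wild type on the left and 15-16 min minus 7 min on the right. Red marks an adjusted p under 0.05, 7 genes on the left and YOL150C on the right, and on the right 43 points lie below 0.

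Whether the response itself differed between the strains was tested as an interaction, the strain difference after the shift minus that at 0 min. In limma's fit 0 members and 0% of the 5792 genes tested passed, and the lowest adjusted p of a member was 0.993. At an unadjusted p under 0.05 there were 4 members (8%), against 4.71% of all genes. YMR085W had the highest estimate, 1.30 ± 0.34, followed by YGR139W at 1.17 ± 0.30. YBR238C had the lowest, at -0.60 ± 0.21. YGR139W stood at 1.24, 0.06, -0.68 and -0.79 at 0, 7, 30 and 60 min in the wild type. The arrays labelled ppt1 gave it 0.27, -0.10, -0.17, -0.12 and -0.60 at 0, 7, 15, 30 and 60 min. For both YMR085W and YGR139W the wild type 0 min array stood above the other 0 min array, while the later arrays of the strains overlapped. A high 0 min array in 1 strain lowers the averaged late change, so the choice of members favours such genes. The members' share and their largest interaction estimates are therefore a description. The typical standard error of the interaction estimate was 0.25 on the log2 scale (median of the members).

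**Figure D4:**
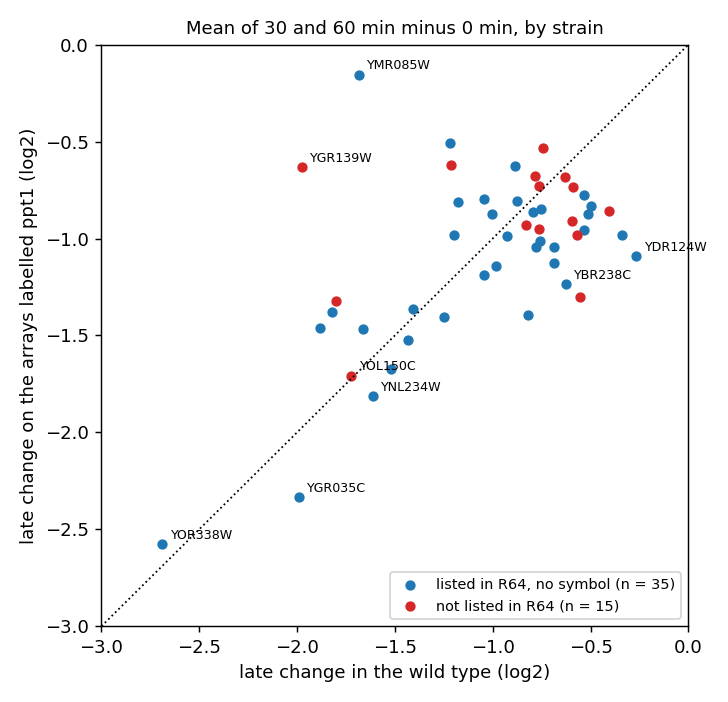
Late change (mean of 30 and 60 min minus 0 min, log2) of the 50 genes in the wild type (horizontal) and on the arrays labelled ppt1 (vertical), 1 point a gene, blue for the 35 genes in the R64 table and red for the 15 that it does not list, with the line of equality dotted. YOR338W is lowest in both strains, and YMR085W and YGR139W lie farthest above the line.

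The rule chose genes that were lower at the same times, so likeness among them is a description. Over the 38 members with all 10 values the median r between 2 of them was 0.71, against 0.00249 between the 733 unnamed genes with 10 values. The closest members were YHR138C and YCLX10C (r = 0.98), YBR287W and YEL073C (0.97), and YNL134C and YML131W (0.97). Among 4167 named genes with 10 values, the gene most like YHR138C was MHO1 (r = 0.99), and most like YEL073C was RCR1, a gene of chitin deposition (0.99). RLM1, a transcription factor gene of the cell wall integrity pathway, was most like YCLX10C (0.99), and GRE2 most like YOL150C. TOH1 was most like YMR090W (0.98), DIA1 like YBR287W (0.98), and LYS1 of lysine synthesis like YJL107C (0.98). SSE2, an Hsp110 gene, was most like YOR289W (0.98), GTT1, a glutathione transferase gene, like YNL208W (0.97), and POR1, the mitochondrial porin gene, like YNL134C (0.97). Each is the highest of 4167 values over 10 arrays with the same reference label, and is a description.

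Beside known stress genes, the members' median change from 0 min was -0.54 at 7 min and -0.91 at 60 min. It was -0.70 and -0.80 over 23 measured general stress (Msn2/Msn4) genes, -0.29 and -0.94 over 25 cell wall integrity (Slt2-Rlm1) targets, and -0.89 and -1.06 over 10 calcineurin (Crz1) targets. Over all genes these medians were -0.01 and -0.02. The 0 and 60 min arrays entered the choice of members, so the members' medians are a description. GSC2 and PUN1 stand in both the cell wall and the calcineurin list. In the strain comparison 3 of the 23 general stress genes were lower and 1 higher on the arrays labelled ppt1, 0 of the 25 cell wall genes passed, and 1 of the 10 calcineurin targets was lower. From 7 to 15-16 min HSP12 was the only gene of these lists to pass, and it was lower.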

How the data were processed

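The submitters deposited 1 log ratio per gene for each of the 10 arrays. The values were taken as log2 from their range, since the sources used here do not state the log base, and they name no platform, dyes, scanner or normalization by the authors. After centring on array medians, limma 3.58.1 (R 4.3.3) was run over all genes with time point and strain as terms, leaving 4 residual and adding 5.8 prior degrees of freedom, and once more with their interaction. A gene passed when its Benjamini-Hochberg adjusted p over all genes tested was under 0.05. Values after ± are limma's standard errors. The fits were tested on simulated data. Of the 5822 genes, the R64 RefSeq table listed 5358. Genes were named by rule: the 20 lowest members, those past a test, those at the limit, like genes and neighbours. Other members were named after their values were seen. The members and lists were chosen with earlier results of these data known. Alternatives were no centring, MAD scaling, quantile normalization, genes with all 10 values, robust variance, model terms and each array left out. Sequences were not used here.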

Additional observations from a re-analysis of the deposited data

How the results depend on the processing

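Counts of members are given. For the strain difference, 7 passed, 4 with quantile normalization and 0 without the time term, and leaving out each array in turn gave 0 to 3 (34 to 96 over all genes, against 221, 124 with quantile normalization, 351 with the genes with all 10 values and 0 without the time term). Median and MAD scaling gave 5 members (159 over all genes), no centring 6 (210) and robust variance 8 (261). The genes with all 10 values gave 10 of the 38 members tested there. From 7 to 15-16 min 1 passed, 2 with MAD scaling and with the genes with all 10 values (YLR349W joined), 0 without the strain term and 0 to 1 with an array left out. Over all genes, leaving out an array gave 2 to 26 there and leaving out the strain term 3, against 27. MAD scaling gave 29 over all genes for that step, and the genes with all 10 values gave 32. Between 30 and 60 min and for the interaction 0 passed under each setting run, and the interaction could not be fitted without a 0 min array. Over all genes 3 passed from 30 to 60 min, 1 without the strain term and 0 to 5 with an array left out. The 8 differences that passed kept their sign under each setting run, and the other named estimates were not rerun.

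Centring adds 1 constant to every late change, so all 50 members were chosen without it by construction. The rule kept 41 with quantile normalization, 46 with MAD scaling, 37 in the wild type alone, 40 on the arrays labelled ppt1 alone, 43 at 30 min alone and 44 at 60 min alone. The labels number no replicates. The time term pairs the arrays of both strains by time, and leaving it out is the unpaired fit.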
